A study of Caenorhabditis elegans with 2 samples.

Results

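The 10 genes described here are mex-1, spn-4, atx-2, mex-3, mex-5, pos-1, pie-1, oma-1, gld-1 and nos-2, a set of maternal RNA-binding genes of the early Caenorhabditis elegans embryo, out of 19973 nuclear protein-coding genes. They were chosen by name, with the peaks at them already known from these data, so every peak count and signal below is a description and none was tested. A peak was assigned to a gene when its summit lay from 2000 bp upstream of the annotated start to the gene end. Anti-GFP chromatin immunoprecipitation and sequencing (ChIP-seq) had been run on strain RW12255. It carries st12255[flt-1::TY1::EGFP::3xFLAG], a fusion of GFP and epitope tags to flt-1, a bromodomain protein gene now called baz-2. The material was whole embryos from egg bleaching, labelled midembryonic with an age of 1 hour, and chromatin was sonicated to fragments of 200 to 800 bp. All samples form 1 group of 2 biological replicates with 1 library each, which share the allele and the preparation, and no untagged or input list was analysed here, so no background level at these genes is given.

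The mRNAs of these genes are made in the mother's germ line, loaded into the oocyte and translated or destroyed at set times in the embryo. Many of their proteins bind the 3′ untranslated regions of other maternal mRNAs and set where and when those are translated. This separates anterior from posterior cells and the germ line from the soma before the embryo's own genes take over. Several of the proteins carry paired CCCH zinc fingers, which bind U-rich and A-rich RNA. The assay reads where the tagged chromatin protein was found on the DNA of these genes, not their RNA.

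The sequences under the 4 upstream peaks that passed the authors' threshold are given first. All 4 peaks have their summits between the starts of 2 genes read in opposite directions. Both atx-2 peaks are in the same interval, and 1 of them is strong and directly at the start of atx-2. Of all 19973 nuclear protein-coding genes, 5562 have a start read in the opposite direction within 2000 bp upstream. An upstream peak in the authors' conservative list was found at 1745 genes, and 863 of these have such a start. Whether the summits at those 863 genes lay between the starts was not counted. Each sequence is printed from the RefSeq genome sequence of WBcel235, the assembly called ce11 in the labels. It runs 5′ to 3′ on the strand of the named gene, with the 21 bases centred on the summit in capitals. The 69 transcribed bases of the proximal atx-2 peak and the 18 bases of the spn-4 peak that belong to the transcript of the neighbouring gene spe-39 are left out.
atx-2 proximal peak (chrIII:10461192-10461388, plus strand): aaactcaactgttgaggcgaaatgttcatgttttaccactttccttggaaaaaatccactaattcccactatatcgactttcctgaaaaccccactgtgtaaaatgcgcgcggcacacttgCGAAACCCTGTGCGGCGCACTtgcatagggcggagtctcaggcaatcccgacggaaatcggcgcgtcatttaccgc
atx-2 distal peak (chrIII:10460649-10460944, plus strand): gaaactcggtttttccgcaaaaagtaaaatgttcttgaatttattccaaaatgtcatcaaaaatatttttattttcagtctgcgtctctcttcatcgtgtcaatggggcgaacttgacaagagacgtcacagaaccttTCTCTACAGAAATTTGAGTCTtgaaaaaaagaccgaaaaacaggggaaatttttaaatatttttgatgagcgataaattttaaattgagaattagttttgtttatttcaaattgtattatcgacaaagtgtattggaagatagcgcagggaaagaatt
mex-1 peak (chrII:11967656-11967793, plus strand): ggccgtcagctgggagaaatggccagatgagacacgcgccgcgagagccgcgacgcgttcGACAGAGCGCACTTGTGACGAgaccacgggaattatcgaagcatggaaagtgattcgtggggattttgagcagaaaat
spn-4 peak (chrV:6785173-6785450, minus strand): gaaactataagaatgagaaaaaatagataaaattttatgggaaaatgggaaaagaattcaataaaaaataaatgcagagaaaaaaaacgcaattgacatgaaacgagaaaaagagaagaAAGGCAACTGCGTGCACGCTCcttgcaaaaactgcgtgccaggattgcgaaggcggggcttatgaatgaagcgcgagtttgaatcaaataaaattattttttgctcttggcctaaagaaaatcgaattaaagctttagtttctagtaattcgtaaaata

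Peaks at these genes fell into 3 patterns. The genes atx-2, mex-1, spn-4 and mex-3 held peaks that passed an irreproducible discovery rate (IDR) of 0.01 between the replicates, with atx-2 far ahead of the others. The genes mex-5, pos-1, pie-1 and gld-1 held only weak peaks below that threshold. The genes oma-1 and nos-2 held none in the ranked list of all candidate peaks. In the conservative list of 2633 peaks, 4 of the 10 genes had a peak and 5 peaks were assigned to them, beside 12.4% of all nuclear protein-coding genes with a peak. The other thresholded list over both replicates held the same 5 intervals, with 4 of the 10 genes beside 13.2% of all genes. The thresholded lists of the single replicates held 4 of these peaks at 3 of the 10 genes each, beside 7.85% of all genes in replicate 1 and 6.22% in replicate 2. The peak of mex-3 was the one missing from both. In the ranked list of 96357 peaks, 8 of the 10 genes held 69 peaks, beside 71.6% of all genes. Nothing is read from these shares, since the peaks were known when the genes were chosen.

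**Figure D1:**
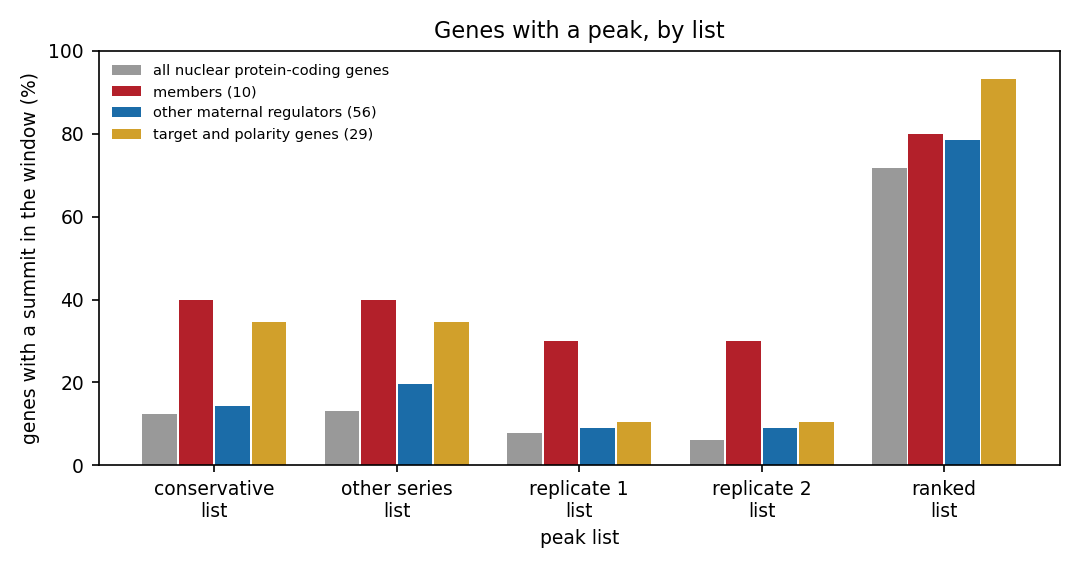
Share of genes (%) with at least 1 peak summit from 2000 bp upstream to the gene end in each of the 5 peak lists, for all nuclear protein-coding genes, the 10 maternal RNA-binding genes and 2 other gene lists; bars are shares without error bars. The 10 genes stand at 40% in both lists over the replicates and at 80% in the ranked list.

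The strongest peak of the set was at atx-2, the gene of the worm ataxin-2, a translational regulator of the germ line. The gene lies on chromosome III from 10461389 to 10468051 on the plus strand and has 4 annotated transcripts with 4 starts. Its proximal peak spanned 10461192 to 10461457 with the summit at -66 bp, where a negative distance is upstream of the start. The signal, in the units of the authors' peak caller, was 470.2 in replicate 1 and 314 in replicate 2, a mean of 392 ± 110.2 (SD, n = 2), and 779.6 for the pooled replicates. In both replicates the value lay several times above the median of the conservative list, which was 57.7 in replicate 1 and 41.8 in replicate 2. In the replicates' own lists the summit lay at -62 and -70 bp, and the peak ranked 22 of 1543 and 25 of 1142.

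The proximal atx-2 peak ranked 23 of 2633 in the conservative list and 40 of 96357 in the ranked list, where its -log10 IDR was 5.00. Of the peaks above it, 13 were mitochondrial, which made it 10 of 2611 among nuclear peaks. Of the 9 nuclear peaks above it, 8 had summits within 200 bp of a tRNA, snoRNA, snRNA or microRNA gene, whereas the nearest such gene to the atx-2 summit was 28847 bp away. Over all nuclear conservative peaks, 15.3% lay within that distance of a small RNA gene. The peak directly above was nearest to the snoRNA gene ZK994.7, with a pooled signal of 798 at -2 bp, and the peak directly below was nearest to the tRNA gene WBGene00014333, with 719.5 at 23 bp from its start. By strongest peak, atx-2 stood 10 of the 2467 protein-coding genes with a conservative peak.

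A second peak at atx-2 spanned 10460649 to 10460944 with its summit at -592 bp. Its signal was 98.2 in replicate 1 and 50.7 in replicate 2, a mean of 74.4 ± 33.6 (SD, n = 2), and 145 pooled, at rank 636 of 2633. This summit was at -592 bp in both replicates' own lists, at ranks 512 and 891. It was nearer to the start of ecps-1, which runs away from atx-2 on the other strand and begins 838 bp upstream of it, with the summit at -246 bp of ecps-1. The proximal peak lay at -772 bp of ecps-1, so both atx-2 peaks are inside the promoter windows (1000 bp upstream to 200 bp downstream of a start) of both genes. Another 14 ranked peaks of atx-2 were below the threshold, 11 of them in the gene body, with pooled signals from 20.1 to 50.9. All of these were far under the pooled signal of the distal peak.

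The peak of mex-1, which encodes a CCCH zinc-finger protein needed for germline blastomere identity and P granule partitioning, lay far upstream. The gene spans 11968637 to 11972330 on chromosome II, plus strand, and the peak spanned 11967656 to 11967793, a narrow 138 bp, with the summit at -911 bp. The signal was 175 in replicate 1 and 116 in replicate 2, a mean of 146 ± 41.3 (SD, n = 2), and 296 pooled, at rank 209 of 2633 with a -log10 IDR of 4.57. Both replicates had it in their own lists, at ranks 190 and 242 with summits at -912 and -920 bp. The summit was closest to W03C9.5 at -182 bp and was also inside the promoter window of rab-7 at -795 bp, a gene of a small GTPase of late endosomes. Both of those genes are read away from mex-1. Among genes, mex-1 stood 221 of 2467 by this peak, whose assignment to mex-1 rests on the 2000 bp window.

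The gene spn-4 encodes an RNA recognition motif protein that acts in spindle orientation and in the translation of maternal mRNAs in early blastomeres. It spans 6783187 to 6784903 on chromosome V, minus strand, and its peak spanned 6785173 to 6785468 with the summit at -418 bp. The signal was 57.4 in replicate 1 and 54.7 in replicate 2, a mean of 56.0 ± 1.89 (SD, n = 2), and 111 pooled, at rank 1042 of 2633 with a -log10 IDR of 3.15. This was the closest pair of replicate values among the 5 peaks, with a log2 difference, replicate 1 minus replicate 2, of 0.07. The median of this signed difference over the conservative list was 0.44, which is an offset between the replicates and not a typical spread. In replicate 1 the value was just under the list's median and in replicate 2 it was above it. The replicates' own lists held it at ranks 1300 and 794, with summits at -418 and -407 bp. The divergent start of spe-39, a gene known for its role in sperm, was 548 bp from that of spn-4 and nearer to the summit, which lay at -130 bp of spe-39. The other ranked peak of spn-4, at -1589 bp, had a pooled signal of 2.94, so spn-4 had 1 clear peak and almost nothing else in its window.

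The peak of mex-3, whose KH-domain protein represses translation of the homeobox mRNA pal-1 in anterior cells, was the weakest of the 5 and the only one with its summit within a gene. The gene spans 127285 to 134270 on chromosome I, plus strand, with 5 transcripts, and the peak spanned 130884 to 131179 with the summit in an intron at 3747 bp from the start. Measured from the nearest of its own transcript starts, the summit was at -1230 bp. The signal was 45.8 in replicate 1 and 27.9 in replicate 2, a mean of 36.8 ± 12.7 (SD, n = 2), and 69.7 pooled, at rank 2334 of 2633. Both values were below the list's medians. Its -log10 IDR of 2.03 was barely over the threshold of 2, and neither replicate's own thresholded list held it. The deposited IDR score was 841 in the conservative list and 863 in the other list over both replicates, on a scale whose maximum is 1000 and whose minimum in those lists is 830.

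**Figure D2:**
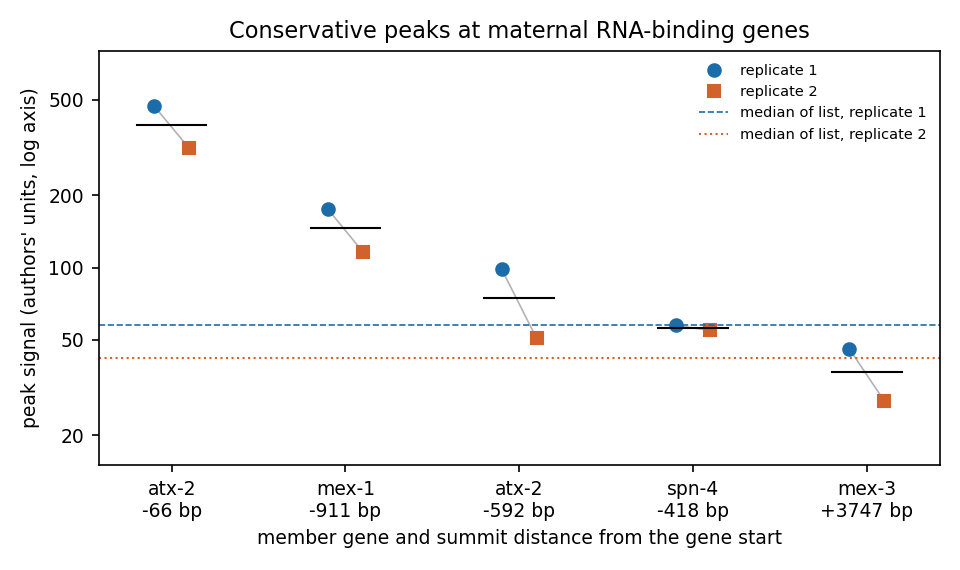
Signal in each replicate (log axis, authors' units) of the 5 conservative peaks, with a black bar at the mean of the replicates and dashed and dotted lines at the list medians of 57.7 (replicate 1) and 41.8 (replicate 2). The proximal atx-2 peak stands at 470.2 and 314, and mex-3 lies below both lines.

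In order of signal, the proximal atx-2 peak, the mex-1 peak, the distal atx-2 peak, the spn-4 peak and the mex-3 peak followed each other. The replicate values of neighbours in this order did not overlap, except those of the distal atx-2 peak and spn-4, where 54.7 and 57.4 fell between 50.7 and 98.2. Replicate 1 was the higher of the pair at all 5 peaks, as it was at 85.3% of nuclear conservative peaks. With 2 replicates, these spreads give only a rough error.

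At mex-3 the threshold fell between neighbouring values. Just inside it stood mex-3 at 3747 bp with a -log10 IDR of 2.03, and next spn-4 with 3.15. Just outside stood a further intronic mex-3 peak at 1109 bp, with 33.3 in replicate 1, 32.7 in replicate 2 and a -log10 IDR of 1.72. Next came a coding-exon peak of atx-2 at 5041 bp with 34.0 and 26.1 in the replicates and 1.5 on the same scale. A peak of pie-1 at -1253 bp had 31.2 and 22.9 and 1.18 on it.

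The CCCH zinc-finger genes mex-5, pos-1 and pie-1 had no thresholded peak in any list. The gene mex-5, whose protein collects in the anterior cytoplasm of the zygote and drives the segregation of germline proteins to the posterior, spans 13353723 to 13356104 on chromosome IV, plus strand, and held 8 ranked peaks with pooled signals of 6.19 to 44.1. The strongest lay in a coding exon at 72 bp, with 21.5 in replicate 1 and 26.7 in replicate 2, at rank 15526 of 96357. The gene pos-1, whose protein represses the Notch receptor mRNA glp-1 in posterior cells, spans 8414086 to 8415254 on chromosome V, plus strand, and held 5 with pooled signals of 15.7 to 39.6. Its strongest, at 644 bp in a coding exon, had 22.4 and 14.3 in the replicates. The replicate 2 value is shared with the pos-1 peak at 863 bp, where replicate 2's own ranked list has its summit. Both genes have a divergent neighbour, as atx-2, mex-1 and spn-4 do, with the start of rec-8 530 bp upstream of mex-5 and that of vha-18 604 bp upstream of pos-1, but no thresholded peak lay between the starts.

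The gene pie-1, whose protein holds back transcription in germline blastomeres, spans 12426893 to 12429195 on chromosome III, plus strand. It had 6 ranked peaks, and 1 of them had the highest pooled signal of the sub-threshold peaks of the set. It lay in a coding exon at 1901 bp with 39.0 in replicate 1, 17.2 in replicate 2 and 63.0 pooled, at rank 4802, although by the replicate values the sub-threshold peaks of mex-3 at 1109 bp and atx-2 at 5041 bp had higher means. The replicates disagreed more at this peak than at the weaker pie-1 peak at -1253 bp, and its -log10 IDR was 0.75. The nearest gene start to the summit was that of snr-6, at 835 bp from it.

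The gene gld-1, whose KH-domain protein controls meiotic entry and oocyte differentiation by repressing many germline mRNAs, spans 7695681 to 7698222 on chromosome I, plus strand, and held 6 ranked peaks with pooled signals of 2.73 to 42.2. The strongest was in a coding exon at 714 bp, with 20.2 in replicate 1 and 22.0 in replicate 2. No summit in the ranked list over both replicates lay closer than that to its start, and 3 of the 6 were upstream, where T23G11.4 has the nearest start. All 6 were under the 69.7 of the weakest conservative peak of the set. Replicate 1's own ranked list also held a gld-1 peak at 54 bp, with a signal of 6.18.

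The gene oma-1, whose CCCH protein is needed for oocyte maturation and holds back translation until the first division, spans 8888976 to 8890999 on chromosome IV, plus strand, and had no peak in any list over both replicates. The nearest ranked summit was 3952 bp from its start. Replicate 2's own ranked list held 1 peak in the window, at 884 bp with a signal of 17.5, and that of replicate 1 held none. The gene nos-2, of the Nanos family that acts in primordial germ cells and spans 7065618 to 7067051 on chromosome II, plus strand, had none in any of the lists, and the nearest ranked summit was 7100 bp from its start. The whole of nos-2 lies within him-14, which runs from 7065020 to 7069966 on the opposite strand and whose exons it overlaps. Of all nuclear protein-coding genes, 28.4% had no ranked peak, and of those whose window length was within 10% of the 4024 bp of oma-1 and the 3434 bp of nos-2, 33.6% and 38.4%. The absence of a ranked peak is the absence of a call in lists whose read depth is unknown, not a measured level of 0.

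**Figure D3:**
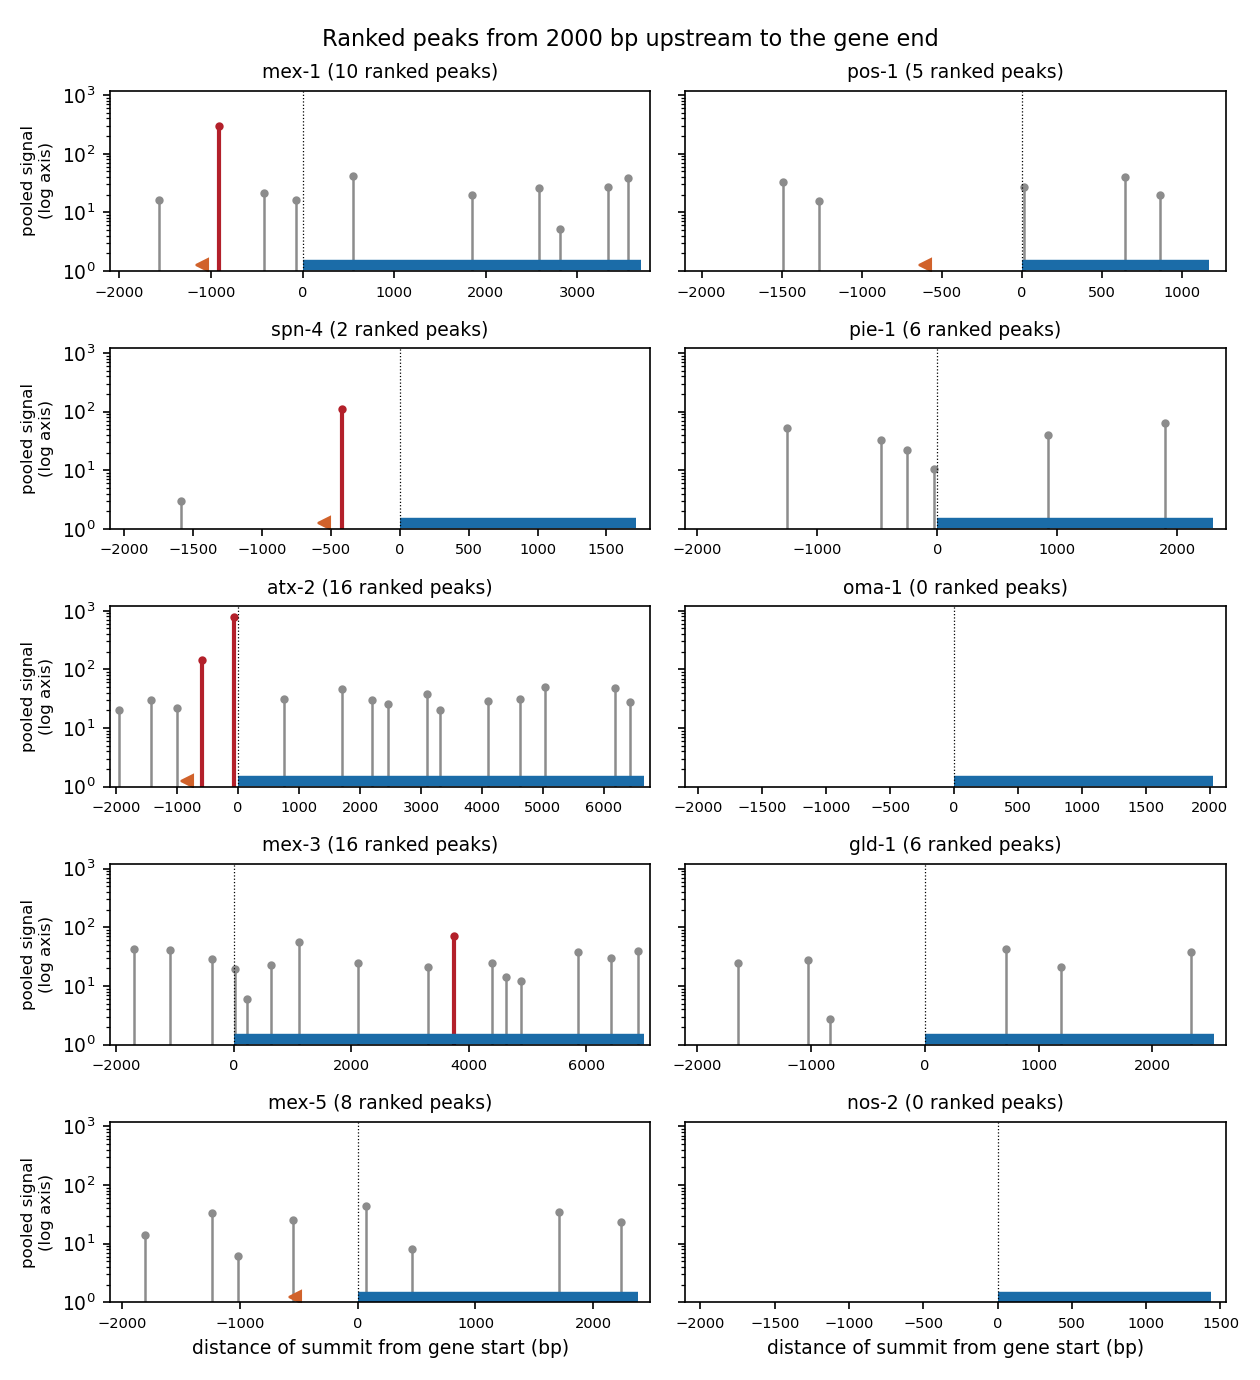
Pooled signal (log axis, authors' units) of every ranked peak against the distance of its summit from the gene start in bp, for each of the 10 genes. Red stems are the 5 conservative peaks, grey stems those below the threshold, the blue bar is the gene and the orange triangle the start of the nearest gene read in the opposite direction; oma-1 and nos-2 are empty.

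Below the threshold, the 64 ranked peaks of the set had a median pooled signal of 27.1, beside 24.6 for the 93723 nuclear ranked peaks outside the conservative list, these included. Replicate 1 was higher at 32 of the 64, beside 64.5% of all. A share of 37.5% had the lowest IDR value in the list, beside 43.3%. In signal, the sub-threshold peaks of the set lay near the middle of the list. Of all 69 ranked peaks, 27 were upstream, 17 in coding exons, 16 in introns and 9 in 3′ UTRs, and the member had the nearest gene start for 35. The values are not all separate measurements, since 24 of the 69 share a replicate value with another peak of the same gene.

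**Figure D4:**
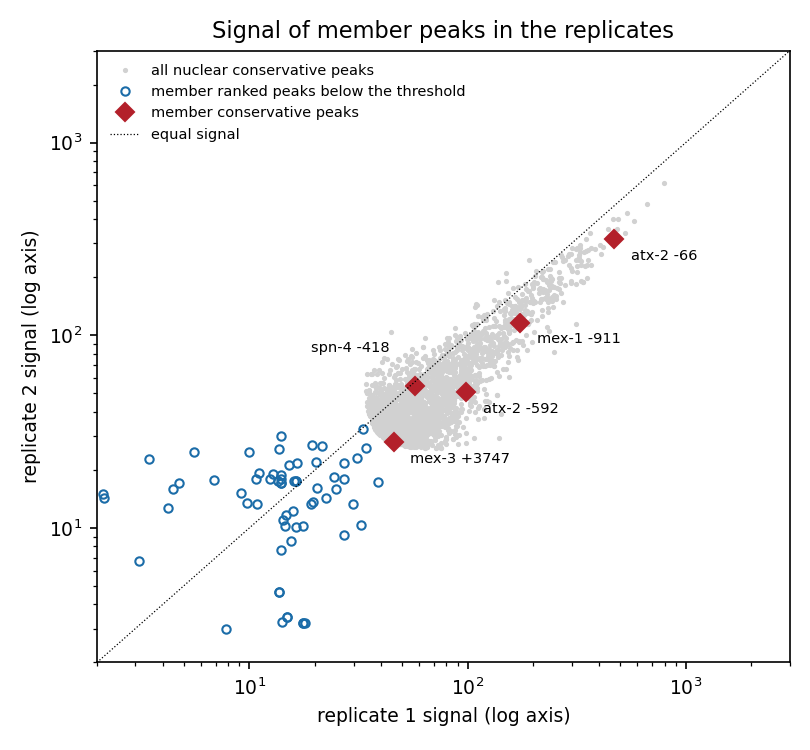
Signal in replicate 2 against replicate 1 (both log axes, authors' units) for the 64 ranked peaks below the threshold (open circles) and the 5 conservative peaks (diamonds) of the 10 genes, over all nuclear conservative peaks (grey). The proximal atx-2 peak is near the top of the grey cloud and mex-3 at its lower edge.

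The upstream peaks shared an arrangement that the choice of genes did not use, although it was made with their peaks known. Of the 10 genes, 5 have a gene read in the opposite direction whose start lies within 2000 bp upstream, and 3 of these 5, atx-2, mex-1 and spn-4, had an upstream conservative peak. Of the other 5 genes 0 did. Over all genes the shares were 15.5% with such a neighbour and 6.12% without. The distal atx-2 peak and the peaks of mex-1 and spn-4 were each nearer to the start of the neighbour, and 4 of the 5 conservative peaks lay in the windows of at least 2 genes, beside 32.9% of all conservative peaks in a protein-coding gene's window. The gene named was also the nearest start at 1 of the 5, the proximal atx-2 peak, beside 62.7% of the 3022 pairs of peak and gene in the list. For the distal atx-2 peak and the peaks of mex-1 and spn-4 the lists cannot tell which of the neighbouring genes a peak belongs to. The mex-3 peak lay in the window of mex-3 alone, although F53G12.4 has the nearest gene start, at -3305 bp.

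The base composition under the peaks was not uniform. Within 100 bp of the summit, GC content was 53.7% at the proximal atx-2 peak, 52.7% at mex-3, 51.2% at mex-1, 37.8% at spn-4 and 30.8% at the distal atx-2 peak. The median was 46.3% over nuclear conservative peaks (interquartile range 41.3 to 50.7) and 37.8% over nuclear ranked peaks. Of conservative peaks, 1.76% were poorer in GC than the distal atx-2 peak and 85.8% were poorer than the proximal one. The distal peak of this gene was thus near the GC-poor end of the range, and the proximal one was above the upper quartile. From 250 bp upstream to 50 bp downstream of the start, atx-2 had 48.3% GC, above 98.3% of all genes, mex-1 had 38.3%, and the other 8 genes had 30.3% to 34.7% beside a median of 34.3%.

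The letters of 4 short motifs were searched on both strands in 201 bases around each summit. GAGAGA was found at both atx-2 peaks and at none of the other 3, beside 32.1% of nuclear conservative and 12.1% of nuclear ranked peaks. At the proximal atx-2 peak this match reaches into the transcribed bases left out of the printed sequence. TTTTTT was found at both atx-2 peaks and at spn-4, beside 42.5% and 60.2%. GCGCGC, which reads the same on both strands, was found at the proximal atx-2 peak, beside 11.7% and 2.42%. TATAAA was found at none of the 5, beside 11.4% and 18.8%. No 2 of these motifs contain one another, and a match is a description of letters, not a binding site.

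The longest word shared by any 2 of the 4 printed sequences, a search chosen after the sequences were seen, was the 9 bases GCGCACTTG, in the mex-1 and proximal atx-2 peaks. It begins at -915 bp in mex-1, where it covers the summit, and at -62 bp in atx-2, where it lies beside the summit. On either strand it was found in 28 of 2611 nuclear conservative windows (1.07%), in 0.216% of nuclear ranked windows and in 67 of 19973 stretches of the same length that end at a gene start (0.335%). The other pairs shared 7 or 8 bases at most. Whether the word has a part in the signal was not tested.

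Other genes of the same biology were taken from 2 lists, chosen with earlier results known. Of 56 other maternal and germline RNA regulators, 8 had a conservative peak (14.3%, beside the 12.4% of all genes), all with signals under that of the proximal atx-2 peak. The highest was ifet-1, a translational repressor of the germ line, with 111 in replicate 1 and 115 in replicate 2, at a summit nearest to the ribosomal protein gene rps-1. Next was larp-1, of the La-related RNA-binding proteins, with 123 and 70.2, then puf-9, a Pumilio family gene, with 93.7 and 49.8, and cgh-1, a DEAD-box helicase of RNA granules, with 63.7 and 52.1. The last of the 8 were cey-1, gld-4, mbk-2 and etr-1, with means from 36.7 to 48.7. The summits given for larp-1 and mbk-2 were nearest to the starts of wip-1 and F49E11.2. In the ranked list 44 of the 56 had a peak (78.6%, beside 71.6% of all genes). Of 29 targets of these proteins and polarity genes, 10 had a conservative peak (34.5%, beside the same 12.4%). In the ranked list 27 of the 29 had a peak (93.1%, beside the same 71.6%). Window lengths were not matched to those of all genes for either list. In each replicate's own thresholded list 3 of the 29 had a peak (10.3%). The shares of all genes there were 7.85% in replicate 1 and 6.22% in replicate 2. Its highest was cye-1, cyclin E, with 384 in replicate 1 and 279 in replicate 2 at 1015 bp, inside a small RNA gene within its body. The replicate values of cye-1 and of the proximal atx-2 peak, 314 to 470.2, overlapped. The next were elc-1, a subunit of ubiquitin ligases, and the polarity genes pkc-3, par-2, cdc-42 and lgl-1. With them stood the methyltransferase gene set-2 and the nuclear receptor gene nhr-25, and the means ran from 44.9 to 68.4. The summits of elc-1, par-2 and cdc-42 were nearest to the starts of Y82E9BR.3, rab-18 and R07G3.7. The median of the mean log2 signal of genes with a peak was 5.68 for the first list and 5.59 for the second, beside 5.72 over all genes.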

How the data were processed

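The data are peak lists of anti-GFP ChIP-seq in 2 replicates of 1 group. Per the labels, coordinates are in ce11; the aligner, caller and read numbers, not given in the sources used here, leave depth unknown. The deposited signal is a value the authors' caller gave each peak, with unknown scaling, and was used only within a list. The deposited score is the authors' IDR score, with a maximum of 1000. Ranked lists hold the authors' -log10 IDR, and the lowest value in the conservative list is 2.00. The ranked list's 2 further signal columns were taken as the replicates, since 74913 of 74914 and 41210 of 41210 intervals shared with the replicates' own lists had the same value there.

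Summits were assigned to genes of Ensembl release 115 (WBcel235; gene and peak ends lie within its chromosome lengths) from 2000 bp upstream of the start to the gene end, so a peak can count for several genes. Assignment was tested on planted data. Mitochondrial peaks were left out unless named. Sequences came from RefSeq. The software was pandas 2.3.3, NumPy 2.4.6 and matplotlib 3.10.9 under Python 3.11.15. The members and lists were chosen with earlier results of these data known, and no test was made. Genes named are the 10 members, up to 8 per other list by mean log2 signal, the rank neighbours of the strongest peak, and genes whose promoter holds a conservative member peak.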

Additional observations from a re-analysis of the deposited data

How the results depend on the processing

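The count of 4 genes with a conservative peak stayed within 1.5 times under 8 of 9 alternatives, as did 25 of 36 counts in all. Assigning each peak to the nearest start alone left 1 of the 10 genes (atx-2) with 1 peak, beside 8.17% of all genes under the same rule, and 6 target and polarity genes. With 500 bp upstream, member peaks numbered 3 (mex-1 and the distal atx-2 peak were lost). Other maternal regulators with a peak were 5 of 56, beside 8.74% of all genes. At an IDR of at most 0.001, other maternal regulators numbered 4 of 56 and target and polarity genes 4 of 29, beside 6.19% of all genes. Without replicate 1 or without replicate 2, the other replicate's own list was used. In either case other maternal regulators numbered 5 of 56, target and polarity genes 3 of 29 and members 3 of 10, with mex-3 lost. The shares of all genes were 6.22% without replicate 1 and 7.85% without replicate 2. The pooled signal column gives higher values than the mean of the replicates: 779.6 for atx-2, 296 for mex-1, 111 for spn-4 and 69.7 for mex-3. No paired analysis was possible because the samples form 1 group. Depth is unknown, so peaks that were missed cannot be told from peaks that are absent, and no interval for depth is given.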
